A study of Mus musculus with 2 samples.

Results

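Cells that carry both Klf1 and Gata2 messages are early erythroid progenitors by their label, caught between multipotent cells and committed red cell precursors. They were chosen by measured values: at least 2 UMIs (molecular tags, of which every captured transcript gets its own) of Klf1 and at least 2 of Gata2 in a barcode. The rule also asked for less than 2 UMIs per 10000 (CP10K) of Slc4a1, which encodes the red cell anion exchanger, and less than 2 CP10K of the platelet gene Pf4. Barcodes with any Ms4a2 UMI, with 5 CP10K or more of Mcpt8 (both basophil and mast cell genes) or with 20 CP10K or more of Elane and Prtn3 together (neutrophil granule genes) were left out. Of 23776 kept cells in both libraries 1277 met the rule, 495 of 12537 in the wild-type (WT) library and 782 of 11239 in the Nat10 conditional knockout (cKO) library. They are called Klf1/Gata2 cells here. The genes of the rule are described below and are not counted in comparisons between groups of cells, but counts between the libraries did not leave them out.

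The study measured bone marrow cells of C57BL/6 mice, freed of mature cells by magnetic depletion of lineage markers, with droplet-based 3′ single-cell RNA sequencing. It asks what Nat10, the enzyme that acetylates cytidine in RNA, does in blood stem cells and their descendants. The groups are WT mice and Nat10 cKO mice, with 1 library each; the series text speaks of 5 mice, the mouse behind a cell is not given, and neither the Cre driver nor the deleted part of Nat10 is named in the labels. With 1 library per genotype there is no replicate check and no test between genotypes: every interval below is a 95% interval that covers counting error only.

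GATA2 is a zinc finger transcription factor that stem and multipotent cells need, and GATA1, its relative, takes its place on shared sites as cells commit to the red cell lineage. KLF1 switches on globin, haem, membrane and cell cycle genes of that lineage. Early committed progenitors carry the receptors for stem cell factor (KIT) and then for erythropoietin (EPOR), and divide fast before haemoglobin is made.

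The label held against its other markers. Gata1 stood at 101.1 CPM (counts per 1000000, from UMIs summed over the cells) in WT and 108 CPM in cKO Klf1/Gata2 cells. In cells with at least 2 Gata2 UMIs and no Klf1 UMI, a group of 286 WT and 159 cKO cells, Gata1 stood at 26.4 and 30.1 CPM. Car1, which encodes the carbonic anhydrase that marks the earliest erythroid cells, stood at 1871 CPM in WT and 1443 CPM in cKO Klf1/Gata2 cells. Those were the highest Car1 levels of the 4 groups compared here in either library. The other 2 groups were Klf1 cells without a Gata2 UMI and below the Slc4a1 limit (1129 WT and 1758 cKO cells), and Klf1 cells above that limit, called Slc4a1 erythroblasts (1049 and 609 cells). Klf1 cells are those with at least 2 Klf1 UMIs. All 4 groups met the rule's bars by Pf4, Ms4a2, Mcpt8, Elane and Prtn3, and the Gata2 cells without Klf1 also lay below the Slc4a1 limit. Car1 stood at 1329.8 and 998 CPM in the former and at 889 and 635 CPM in the latter. For the genes of the rule, Klf1/Gata2 cells held 172 CPM of Klf1 and 82.5 CPM of Gata2 in WT, and 195 and 75.4 CPM in cKO.

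Many cells lay near the limits of the rule. Exactly 2 Gata2 UMIs were found in 188 WT and 325 cKO members, and 394 WT and 616 cKO cells missed membership with 1 Gata2 UMI. Exactly 2 Klf1 UMIs were found in 66 and 68 members, and 102 and 86 cells missed it with 1 Klf1 UMI. Ms4a2 alone or with other genes barred 75 WT and 120 cKO cells that had enough Klf1 and Gata2. The median member held 7 Klf1 and 3 Gata2 UMIs in WT and 9 and 3 in cKO. The class is cut from counts, and no clusters were computed.

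Genes that define other lineages were lower in Klf1/Gata2 cells than in Gata2 cells without Klf1, though not absent. The rule barred cells by Pf4, Ms4a2, Mcpt8, Elane and Prtn3, and the same bars were applied to the other groups of cells. This favours low levels of such genes in advance in members and in the groups they are set against. The 18 megakaryocyte genes listed summed to 146 CPM in WT and 84.3 CPM in cKO, against 1077 and 658 CPM in Gata2 cells without Klf1. They were higher in members than in Klf1 cells without Gata2, at 58.8 and 52.8 CPM, and in Slc4a1 erythroblasts, at 83.4 and 66.4 CPM. The 11 basophil and mast cell genes summed to 80.8 and 69.5 CPM, with 3 of them at 0 in WT and 0 at 0 in cKO. Neutrophil and monocyte genes, 18 in the list, summed to 397 and 246 CPM, near the 371 and 276 CPM of Slc4a1 erythroblasts. Mpo, the myeloperoxidase of neutrophil granules, alone gave 176 CPM in WT and 107 CPM in cKO members. It stood at 156 and 104 CPM in Slc4a1 erythroblasts, so the Mpo level of Klf1/Gata2 cells was close to that of cells that should lack it.

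Klf1/Gata2 cells took a larger share of the cKO library than of the WT library. They were 3.95% of WT cells (exact binomial interval 3.61 to 4.30%) and 6.96% of cKO cells (6.49 to 7.44%), a ratio of 1.76 (exact conditional interval 1.57 to 1.98). Klf1 cells without Gata2 were also a larger share in cKO, 15.6% against 9.01%, a ratio of 1.74 (1.61 to 1.87). Before and after these stages the order was the other way round. Gata2 cells without Klf1 stood at 2.28% and 1.41% of cells, a ratio of 0.620 (0.508 to 0.755), and Slc4a1 erythroblasts stood at 8.37% and 5.42%, a ratio of 0.648 (0.585 to 0.716).

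**Figure D1:**
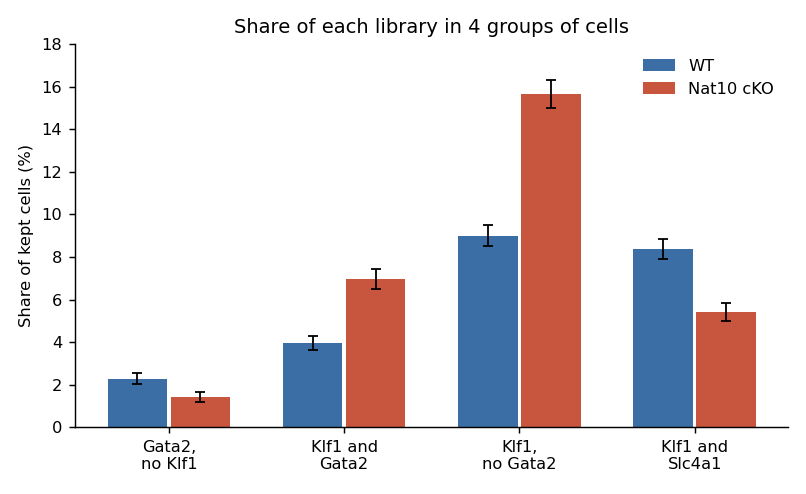
Share of kept cells (%) in 4 groups of cells in the WT and the Nat10 cKO library, with exact 95% binomial intervals for counting error; each bar is 1 library. The middle 2 groups, Klf1 cells with Gata2 (3.95% and 6.96%) and without it (9.01% and 15.6%), are higher in cKO, and the outer 2 are lower.

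Because the rule counts UMIs, it finds more members where cells are deeper. Members had a median of 45681 UMIs in WT and 47304 in cKO, against 18600 over all kept WT cells and 21119 over all kept cKO cells. The cKO library was thus the deeper one. Under 20000 UMIs, 0.705% of WT and 0.895% of cKO cells were members, a ratio of 1.27 with an interval that included 1 (0.832 to 1.94). From 20000 to under 40000 UMIs 3.70% and 6.16% were, a ratio of 1.66 (1.33 to 2.09). With 40000 to under 60000 UMIs 10.4% and 18.3% were, a ratio of 1.76 (1.47 to 2.12). At 60000 or more UMIs 19.0% and 30.0% were, a ratio of 1.58 (1.26 to 1.995). When each cell was thinned to 10000 UMIs and 4908 WT and 4295 cKO shallower cells were left out, 67 WT and 86 cKO cells met the rule, and the ratio of shares was 1.41 (1.01 to 1.97). Taken among all Klf1 cells, members were 16.1% in WT and 20.8% in cKO as deposited (ratio 1.29, 1.15 to 1.44), and 3.52% and 3.58% after thinning (ratio 1.02, 0.731 to 1.42). All Klf1 cells here means cells with at least 2 Klf1 UMIs that met the bars by Pf4, Ms4a2, Mcpt8, Elane and Prtn3, at any Gata2 and Slc4a1. Together they were 24.5% of WT and 33.5% of cKO cells. Among Klf1 cells of like depth, unthinned, the ratio of the members' share was 0.848 (0.555 to 1.30) under 20000 UMIs, 1.34 (1.07 to 1.68) from 20000 to under 40000, 1.33 (1.11 to 1.60) from 40000 to under 60000 and 1.35 (1.07 to 1.71) from 60000 on. The share among Klf1 cells was thus higher in cKO in the 3 deeper ranges, while in the shallowest range and after thinning, with few members each, the interval included 1.

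Along the 4 groups, several genes of the multipotent state were lower and several erythroid genes higher from group to group, with Klf1/Gata2 cells in between. Car1 differed, being highest in the Klf1/Gata2 cells. Kit stood at 271 CPM in WT Gata2 cells without Klf1, 215 in Klf1/Gata2 cells, 86.0 in Klf1 cells without Gata2 and 13.7 in Slc4a1 erythroblasts. In cKO the same order of groups gave 172, 168, 89.0 and 11.8 CPM, the first pair lying within each other's intervals. Myb, a transcription factor that keeps progenitors dividing, was nearly level across the first pair of groups in WT, at 431 and 432 CPM, and stood at 183 CPM in Klf1 cells without Gata2 and 41.6 CPM in erythroblasts. Both genes thus stayed high through the Klf1/Gata2 stage and were lower after it.

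Other genes of the multipotent state were already far lower in Klf1/Gata2 cells. Meis1, which encodes a stem cell homeobox protein, stood at 1114 CPM in WT Gata2 cells without Klf1, 90.3 in Klf1/Gata2 cells and 8.08 in Klf1 cells without Gata2. Angpt1, which encodes the ligand angiopoietin 1, went from 1989.5 to 210 to 31.7 CPM. The erythroid side moved in steps of the other sign. Tfrc, the transferrin receptor, stood at 58.5, 258, 423 and 813 CPM over the 4 groups in WT. In cKO the same order gave 72.1, 232, 357 and 718 CPM.

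**Figure D2:**
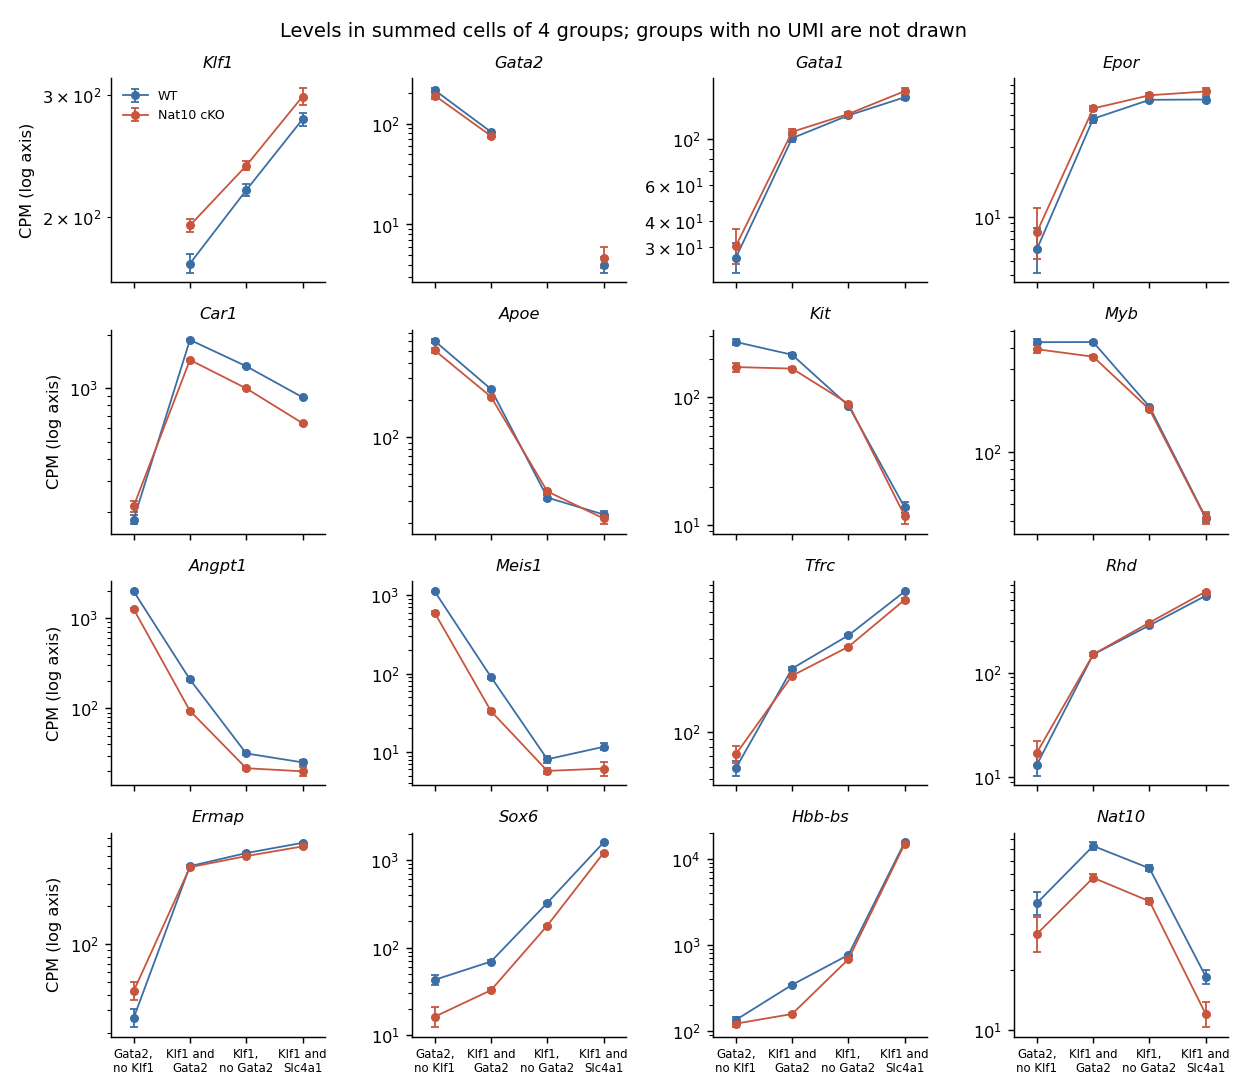
Levels of 16 genes (CPM, log axis) in cells summed over 4 groups, from Gata2 cells without Klf1 on the left to Slc4a1 erythroblasts on the right, in WT and Nat10 cKO; bars are exact Poisson 95% intervals, and each point is 1 library. Car1 and Nat10 are highest in the Klf1/Gata2 cells, Kit, Apoe, Angpt1 and Meis1 are lower from left to right up to the Klf1 cells without Gata2, and Tfrc, Rhd, Ermap and Sox6 are higher from the Klf1/Gata2 cells on.

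Set against Gata2 cells without Klf1, erythroid genes were higher. Of 6965 genes measured (a mean of at least 20 CPM and 100 UMIs in all), 313 (4.49%) were at least 2-fold higher in Klf1/Gata2 cells in both libraries and 808 (11.6%) at least 2-fold lower. Among 20 early erythroid genes listed, 16 were in the higher group and 2 in the lower, with medians of 2.63 in WT and 2.15 in cKO on the log2 scale, where all genes had 0.11 and 0.05. Haem synthesis gave 8 of 12 genes in the higher group and red cell membrane genes 10 of 15. Of 15 stem and multipotent genes 14 were in the lower group, with medians of −3.29 and −4.14. The mean of the filter ran over both groups, so a gene could pass it through 1 group alone. Genes near the floor in Klf1/Gata2 cells could thus enter through the Gata2 cells without Klf1, which favours lower calls. By their mean in members alone, 8 stem and multipotent genes passed the same limits. The lists were chosen with these libraries known and are described, not tested.

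Genes at the higher end of that comparison included signalling, metal and amino acid genes beside the erythroid ones. Sphk1, which makes sphingosine 1-phosphate, stood at 116 CPM in WT Klf1/Gata2 cells and 2.35 CPM in WT Gata2 cells without Klf1, and at 121 and 5.21 CPM in cKO. Its log2 ratios were 5.57 (4.84 to 6.53) and 4.50 (3.88 to 5.29). Mt2, a metallothionein, had ratios of 4.74 and 3.52, and Asns, the asparagine synthetase, 3.37 and 3.21. Ermap, a red cell surface protein, stood at 417 against 26.1 CPM in WT and 409 against 42.6 CPM in cKO, and Cldn13, a claudin, had ratios of 3.31 and 3.69. At the lower end stood the stem cell factors Hlf, with ratios of −4.94 and −5.35, and Mecom, with −4.75 and −5.23, and the adhesion receptor gene Adgrl4, with −4.77 and −5.98. Hlf rested on 187 WT and 98 cKO UMIs in Klf1/Gata2 cells, and Mecom on 543 and 457. By their mean in members alone both fell short of the filter.

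Promoters of 4 genes that tell Klf1/Gata2 cells from Gata2 cells without Klf1 are shown because each holds a match to the GATA motif close to its start. They are Klf1 itself, a gene of the rule, the erythropoietin receptor gene Epor, Ermap, and Rhd, which encodes the Rh blood group protein. Each run has 250 bases before and 50 bases after the start in RefSeq (build GRCm38.p6, another build than that of the counts), 5′ to 3′ on the gene's strand, with the match in capitals. The motif was searched on both strands as AGATAA or as AGATAG and likewise as TGATAA or else as TGATAG, and in these promoters each match stands alone. Klf1, on the plus strand at chr8:84901732-84902031:
Klf1: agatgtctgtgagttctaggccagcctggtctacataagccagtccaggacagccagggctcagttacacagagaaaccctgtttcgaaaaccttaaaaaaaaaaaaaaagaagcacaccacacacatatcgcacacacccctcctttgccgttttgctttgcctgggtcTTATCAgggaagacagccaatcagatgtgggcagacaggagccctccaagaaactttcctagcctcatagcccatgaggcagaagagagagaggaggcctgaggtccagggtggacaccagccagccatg
Epor, on the minus strand at chr9:21963527-21963826, has its match nearer to the start:
Epor: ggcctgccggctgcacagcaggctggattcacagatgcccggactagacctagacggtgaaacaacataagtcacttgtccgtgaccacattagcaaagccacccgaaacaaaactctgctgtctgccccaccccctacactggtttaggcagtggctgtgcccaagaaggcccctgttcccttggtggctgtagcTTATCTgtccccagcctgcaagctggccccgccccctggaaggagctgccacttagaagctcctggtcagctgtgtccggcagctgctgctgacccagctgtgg
Ermap lies on the minus strand at chr4:119189946-119190245:
Ermap: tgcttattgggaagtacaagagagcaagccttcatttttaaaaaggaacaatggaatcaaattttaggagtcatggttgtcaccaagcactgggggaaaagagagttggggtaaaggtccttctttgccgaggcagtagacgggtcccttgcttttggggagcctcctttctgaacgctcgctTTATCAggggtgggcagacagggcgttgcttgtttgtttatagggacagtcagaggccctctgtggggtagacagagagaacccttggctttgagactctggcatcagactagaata
Rhd lies on the plus strand at chr4:134864286-134864585:
Rhd: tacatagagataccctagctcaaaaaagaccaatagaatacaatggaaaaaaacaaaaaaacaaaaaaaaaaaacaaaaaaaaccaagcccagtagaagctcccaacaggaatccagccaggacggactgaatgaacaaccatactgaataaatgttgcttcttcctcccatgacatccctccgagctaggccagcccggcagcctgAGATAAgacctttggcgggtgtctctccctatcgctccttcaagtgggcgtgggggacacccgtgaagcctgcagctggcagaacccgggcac
The match begins 80 bases before the start in Klf1, 54 in Epor, 67 in Ermap and 43 in Rhd. Such letters are common: 29.8% of all 32851 promoters of this length hold at least 1 match. By gene, any promoter of the gene held a match for 21.1% of 5575 measured genes with a promoter in the table, for 25.5% of 247 genes higher in Klf1/Gata2 cells than in Gata2 cells without Klf1, and for 26.4% of 628 lower ones. A match is a description of letters and not a bound site.

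Epor and Rhd followed the same order of groups. Epor stood at 46.8 CPM in WT and 55.1 CPM in cKO members, 63.1 and 67.8 CPM in Klf1 cells without Gata2 and 5.98 and 7.82 CPM in Gata2 cells without Klf1. Most of the difference lay between the Klf1/Gata2 cells and the cells without Klf1. Rhd stood at 149 and 150 CPM in members, 284 and 303 CPM in Klf1 cells without Gata2 and 13.04 and 17.1 CPM in Gata2 cells without Klf1.

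Klf1/Gata2 cells differed from Klf1 cells without Gata2 in fewer genes. Of 6468 genes measured, by a mean again taken over both groups, 85 (1.31%) were at least 2-fold higher in both libraries and 39 (0.603%) at least 2-fold lower. A gene near the floor in either group could thus enter through the other, which favours calls in both directions. Muc13, a cell surface mucin, stood at 89.6 CPM against 10.0 in WT and 54.2 against 8.27 in cKO, with log2 ratios of 3.16 (3.02 to 3.31) and 2.71 (2.57 to 2.85). Apoe, apolipoprotein E, stood at 245 against 32.1 CPM in WT and 212 against 36.02 in cKO, and Slc22a3, an organic cation transporter, at 147 against 17.7 and 89.3 against 15.2. Meis1 had ratios of 3.48 and 2.53, Angpt1 2.73 and 2.11, and Cd69, an early activation lectin, 2.502 and 2.20. Each of these 6 genes was higher still in Gata2 cells without Klf1, in both libraries: Muc13 stood there at 372 and 223 CPM and Cd69 at 140 and 255 CPM.

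Among the genes lower in Klf1/Gata2 cells were Sox6 and genes of the red cell membrane and of haem synthesis, beside others of no list such as Sec14l2 and Trim2. Sox6, a transcription factor of late red cell development, stood at 69.2 CPM against 324 in WT and 32.5 against 178 in cKO, with ratios of −2.23 (−2.30 to −2.15) and −2.45 (−2.54 to −2.37). Of 16 red cell membrane genes measured, 16 were lower in both libraries, as were 2654 of all 6468 genes, and 3 passed the 2-fold limit. Epb42, protein 4.2, had ratios of −1.60 and −1.74, and Sptb, beta spectrin, −1.47 and −1.60. Haem synthesis genes were lower for 12 of 14, with medians of −0.70 and −0.59. Alas2, the erythroid enzyme of the first step, was below the 20 CPM needed to be counted among them. It stood at 4.38 against 9.50 CPM in WT and 2.39 against 7.28 CPM in cKO. In members it rested on 104 WT and 91 cKO UMIs, with 35.6% of the WT UMIs in 5 cells. E2f2, a cell cycle regulator of erythroblasts, had ratios of −1.67 and −1.56. By their mean in members alone, Epb42, Sec14l2 and E2f2 lay under 20 CPM, so they entered through the Klf1 cells without Gata2. In members they rested on 292, 309 and 528 WT UMIs and on 322, 383 and 591 cKO UMIs. Promoters with a GATA match were found for 14 of 31 of the lower genes in the RefSeq table (45.2%), 20 of 63 of the higher ones (31.7%) and 20.5% of the 5207 measured genes, given here as a description.

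**Figure D3:**
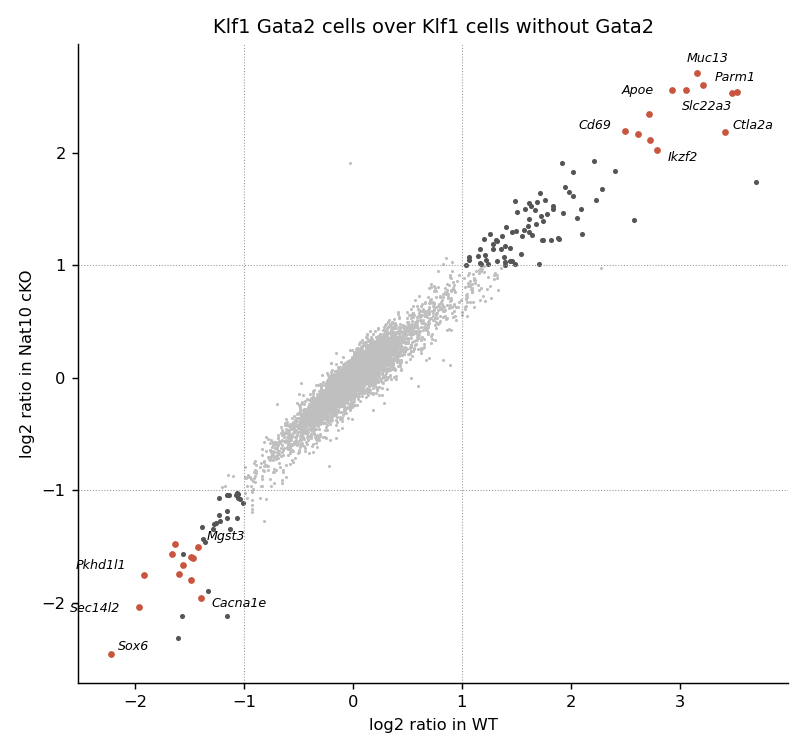
log2 ratio of Klf1/Gata2 cells over Klf1 cells without Gata2 in WT (horizontal) and Nat10 cKO (vertical), for 6468 genes; dark points pass 2-fold the same way in both libraries (85 higher, 39 lower), red points are the 12 chosen at each end, some with their symbols, and dotted lines mark 2-fold. Muc13 and Parm1 lie at the upper right and Sox6 at the lower left in both libraries.

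Growth and cycling genes parted at this stage. All 43 S phase genes listed were lower in Klf1/Gata2 cells than in Klf1 cells without Gata2 in both libraries, with medians of −0.49 in WT and −0.40 in cKO and 0 past 2-fold, and 45 of 50 genes of G2 and mitosis were lower. Of all 6468 genes 2654 were lower in both libraries. Cells thinned to 10000 UMIs gave the same order: the median member held 52 UMIs of S phase genes in each library, against 77 and 72 in Klf1 cells without Gata2 and 117 and 112 in erythroblasts. Ribosome biogenesis genes went the other way, 37 of 42 being higher in members in both libraries, by medians of 0.13 and 0.21, against 2811 of 6468 genes in all. Npm1, nucleophosmin, which works in ribosome assembly, stood at 3296 CPM in WT members and 2824 CPM in WT Klf1 cells without Gata2, and at 4220.2 and 3462 CPM in cKO. None of the 42 passed 2-fold, so these are small shifts shared by many genes.

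At a common depth more Klf1/Gata2 cells than later cells held Kit. After thinning to 10000 UMIs, 83.5% of WT and 76.0% of cKO members held a Kit UMI. Of Klf1 cells without Gata2 42.5% and 43.1% did, and of Gata2 cells without Klf1 86.1% and 75.2%. Slc4a1 erythroblasts had 9.05% and 7.26%. Before thinning the shares were 98.8% and 96.5% in members and 19.0% and 12.3% in erythroblasts, at median depths of 45681 and 47304 against 28559 and 23506 UMIs. Cd34, a surface marker of stem and early progenitor cells, was rarer: 7.74% (5.53 to 10.5%) of thinned WT members and 2.71% (1.68 to 4.11%) of cKO members held a UMI, against 3.78% and 2.65% of erythroblasts. Unthinned, those shares were 17.98% and 10.9% in members and 10.1% and 6.24% in erythroblasts. After thinning, the cKO share of Cd34 was therefore close to that of cKO erythroblasts. How much of either share is background was not tested.

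Klf1/Gata2 cells themselves ran along a gradient. They were split into 3 bins of about equal size, over both libraries together, by the part that Gata2 made of a cell's Gata2 and Klf1 UMIs. In WT 29.7% of members fell in the low bin, 30.3% in the middle and 40.0% (35.7 to 44.5%) in the Gata2-high bin. In cKO the shares were 36.7%, 35.4% and 27.9% (24.8 to 31.2%). The bins use the genes of the rule, so these shares are a description. Depth ran along the bins too, from medians of 61795 and 56211 UMIs in the low bin to 30533 and 32970 in the Gata2-high bin, and its part in the split was not tested.

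Genes that the bins did not use followed them. In WT, Meis1 was at 239 CPM in the Gata2-high bin, 49.0 in the middle and 20.9 in the low bin; in cKO it was at 118, 13.3 and 11.0 CPM. Apoe ran from 563 to 193 to 66.8 CPM in WT and from 573 to 168 to 84.7 CPM in cKO. Kit differed less, from 274 to 219 to 171 CPM in WT and from 190 to 169 to 157 CPM in cKO. Its log2 ratio of the Gata2-high over the low bin was 0.68 (0.58 to 0.77) in WT and 0.28 (0.18 to 0.37) in cKO, and the difference between these single libraries was not tested.

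Erythroid genes were higher from the Gata2-high to the low bin. Epor went from 31.2 to 49.3 to 55.6 CPM in WT and from 44.0 to 52.5 to 62.1 CPM in cKO, and Rhd from 76.4 to 155 to 195 and from 75.7 to 145 to 187 CPM. Gata1 differed less, from 80.8 to 112 CPM in WT and from 92.1 to 115 CPM in cKO between the outer bins. Car1 was nearly level, with 1788 and 1856 CPM at the ends in WT and 1437 and 1428 CPM in cKO. Car1 thus did not follow the bins as Epor and Rhd did.

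**Figure D4:**
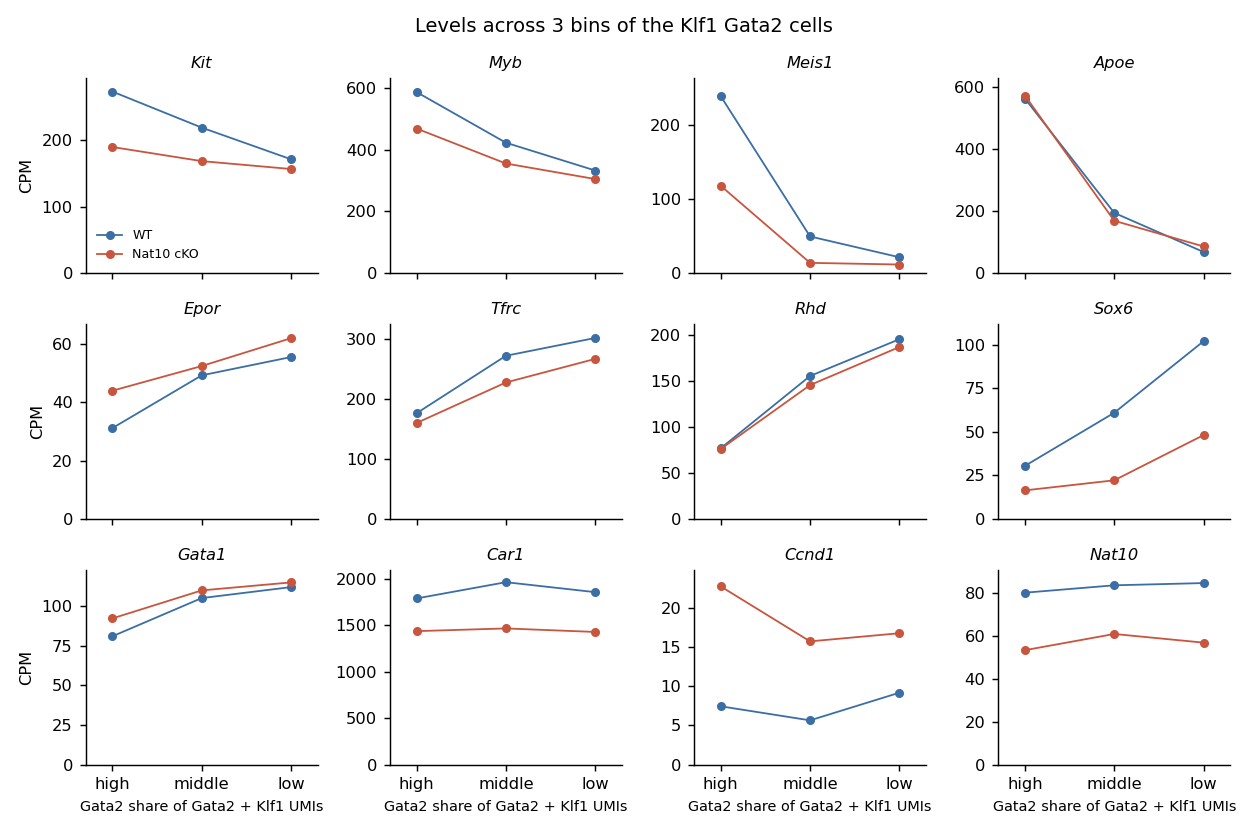
Levels of 12 genes (CPM) in 3 bins of Klf1/Gata2 cells, ordered from a high to a low part of Gata2 among a cell's Gata2 and Klf1 UMIs, in WT and Nat10 cKO; each point is the summed cells of 1 bin in 1 library. Kit, Myb, Meis1 and Apoe are lower and Epor, Tfrc, Rhd and Sox6 higher along the bins in both libraries, Car1 and Nat10 stay nearly level, and Ccnd1 is higher in cKO in every bin.

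Between the libraries, Nat10 itself was lower in cKO members by less than a full loss. It stood at 82.8 CPM (79.2 to 86.6) in WT and 57.4 CPM (55.1 to 59.9) in cKO Klf1/Gata2 cells, a log2 ratio of −0.53. Nat10 was higher there than in the other 3 groups in both libraries: Klf1 cells without Gata2 held 64.1 and 43.8 CPM, Gata2 cells without Klf1 42.9 and 30.1 CPM and erythroblasts 18.4 and 11.98 CPM. Over the Gata2 bins the ratio was −0.59, −0.46 and −0.57 from high to low. Thumpd1, the partner of Nat10 on transfer RNA, stood at 65.7 and 69.6 CPM. The 3′ tags may lie outside the deleted part of Nat10, so its level does not check the knockout.

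More genes passed a 1.5-fold limit downward than upward in cKO members. Of 6559 genes measured, 14 (0.213%) were higher and 202 (3.08%) lower, with a median log2 ratio of −0.09 over all of them. Genes of the rule were not left out here, and Elane, at −0.73, was past the limit. Scaling by trimmed mean of M-values (TMM), which is set by the bulk of genes, moved every ratio up by 0.18, the median to 0.09 and the counts to 194 higher and 94 lower, and scaling by the median ratio gave 51 and 135. The balance of up and down therefore rests on the scaling, and the lists below are read against the median of all genes. The direction of these shifts was mostly the same in the other groups, while fewer of the genes passed the limit there. How often all 6559 genes kept their sign between groups was not counted. In Klf1 cells without Gata2, Gata2 cells without Klf1 and Slc4a1 erythroblasts all 14 higher genes kept their sign, and 8, 10 and 7 passed the limit. Of the 202 lower genes 197, 193 and 195 kept their sign there, and 65, 114 and 77 passed it.

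Most genes of the multipotent state had lower levels in cKO members. Of 8 stem and multipotent genes measured 5 were past the limit downward and 0 upward, against 3.08% and 0.213% of all genes. Over the 18 with at least 50 UMIs the median was −1.08, and −0.90 with TMM, with 15 below 0 and 3 above. The highest were Ly6a, a stem cell surface antigen, at 1.09 on 22 WT and 76 cKO UMIs, a sign that turned in members chosen after thinning, at −0.57, and Cd48, a surface marker of progenitors, at 0.26. Meis1 stood at 90.3 CPM in WT and 33.2 in cKO, a ratio of −1.44 (−1.55 to −1.34). Angpt1 had −1.16 (−1.22 to −1.09), Sox4 −1.003 and Kit −0.36 (−0.41 to −0.31). In Klf1 cells without Gata2 the ratio of Meis1 was −0.49 and that of Kit 0.05, and in Gata2 cells without Klf1 that of Meis1 was −0.91.

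The position of cells along the Gata2 bins moved with that list. With the cKO bins weighted as in WT the list's median was −0.85, and within the Gata2-high bin alone Meis1 had a ratio of −1.02, Angpt1 −0.91 and Kit −0.53. In the middle bin they had −1.88, −1.07 and −0.38, and in the low bin −0.92, −0.44 and −0.13. The part of position in the list's ratios was not tested. The 5 WT members with the most Meis1 held 14.02% of its UMIs.

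Among the 12 lowest genes were adhesion and signalling genes beside stem genes. Gene span moved with the ratio over all genes, from a median of 0.17 under 3 kb to one of −0.46 over 300 kb, and its part in the stem list and in these genes was not tested. Auts2, which encodes a subunit of a Polycomb complex, stood at 47.7 CPM in WT and 12.04 in cKO, a ratio of −1.98 (−2.14 to −1.83), with 42.2% of its WT UMIs in 5 cells. Adgrl4 had −1.97, Prkg1, a cyclic GMP-dependent kinase, −1.59, Gpc4, a glypican, −1.55 and Pard3b, a cell polarity gene, −1.37. Gab2, an adaptor below cytokine receptors found in 92.9% of WT and 73.8% of cKO members, had −1.30 (−1.36 to −1.23). The same list held the monocyte gene Ly6c2, at −1.58, and F13a1, at −1.44. In Klf1 cells without Gata2 the same ratios were −1.35 and −0.98, and Mpo had −0.71 in members and −0.64 there.

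Upward, antibody genes stood highest. Ighm, the heavy chain of immunoglobulin M, stood at 20.3 CPM in WT and 140 CPM in cKO members, a ratio of 2.79, and Igkc, the kappa light chain, had 1.43. Both fall outside the rule for named genes and were chosen after their values were seen. Jchain, the joining chain made by plasma cells, stood at 7.74 and 34.5 CPM, a ratio of 2.15, and 71.9% of its cKO UMIs lay in 5 cells. Ppm1e, a protein phosphatase, stood at 16.7 and 36.7 CPM, a ratio of 1.14 (0.98 to 1.30), found in 29.1% of WT and 52.4% of cKO members. Pusl1, a pseudouridine synthase-like gene, had 0.80 and Hmga2, a chromatin protein of growing cells, 0.62. Txnl4a of the spliceosome had 0.66, Exosc4 of the RNA exosome 0.60, Wdr18 of ribosome assembly 0.60, Psmc2 of the proteasome 0.59 and Pop5 of RNase P 0.58. Ccnd1, cyclin D1, below the 20 CPM needed to be counted, stood at 7.57 and 17.6 CPM, a ratio of 1.21, and at 1.60, 1.46 and 0.86 in the Gata2-high, middle and low bins.

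Erythroid lists differed in their medians, beside −0.09 for all genes, of which 0.213% passed the limit upward and 3.08% downward. Early erythroid genes had a median of −0.03, with 0 of 20 past the limit upward and 1, Muc13, downward, and haem synthesis genes −0.03 with 0 of 14 past it. Car1 had a ratio of −0.38 (−0.39 to −0.36), Epor 0.23 (0.13 to 0.34), Gata1 0.10 (0.03 to 0.18) and Blvrb, the biliverdin reductase, 0.39. Tfrc had −0.15, a sign that turned with TMM, at 0.03, and in members chosen after thinning, at 0.10. Erythroid transcription factors had a median of −0.26, with Sox6 lowest at −1.09 and Tal1, a partner of GATA1, at −0.40, while Zfpm1, the GATA1 cofactor FOG1, had 0.08. Red cell membrane genes had −0.26, with 0 of 15 past the limit. EPO and KIT signalling genes had −0.44, with 1 of 9 past the limit: Gab1, an adaptor, at −0.90.

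The 4 adult globin genes measured were all past the limit downward, against 3.08% of all genes, with a median of −0.99. Hbb-bs stood at 343 CPM in WT and 157 in cKO members, a ratio of −1.13, and its top 5 WT cells held 52.3% of the UMIs. Its median over cells was 1.12 CP10K in WT and 1.03 in cKO. The ratio was −0.67 with every cell weighing alike, −0.55 without called doublets, −1.26 in members chosen after thinning and −0.03 among members with 30000 to under 60000 UMIs. Hbb-bt, the other adult beta globin, had −1.12, and −0.71, −0.50, −0.78 and −0.34 in the same order of settings. The size of the globin ratios thus varied with the cells counted. Cells that should lack haemoglobin, those with Gata2 and no Klf1, held 134 and 121 CPM of Hbb-bs.

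Gene sets of protein synthesis and respiration lay above the median of all genes, each by a small step. Mitochondrial ribosomal proteins had a median of 0.31 with 74 of 77 above 0, cytosolic ribosomal proteins 0.18 with 72 of 79, oxidative phosphorylation 0.20 with 72 of 77 and ribosome biogenesis 0.17 with 35 of 42. Of all 6559 genes 2556 lay above 0. None of these genes passed 1.5-fold among the 76, 76, 75 and 42 measured for it, against 0.213% of all genes. Nhp2, a small nucleolar RNA protein, was highest in the biogenesis list at 0.52, and Npm1 had 0.36. Among all genes measured, those with a span under 3 kb had a median of 0.17 and those of 3 to 10 kb 0.18. The part of gene span in these lists was not tested either.

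Cell cycle lists lay near the median of all genes, with −0.01 for S phase and 0.02 for G2 and mitosis and 0 of 42 and 0 of 50 genes past the limit. Immediate early genes, which also answer to cell handling, had a median of −0.58, with 5 of 11 past the limit downward, against 3.08% of all genes. Klf2 and Klf4 were lowest at −1.91 and −1.90, on 177 and 185 WT and 75 and 79 cKO UMIs. For each, 5 WT cells held 27.7% and 35.1% of the WT UMIs. Interferon response genes had a median of −0.40, with Ifi27l2a lowest at −2.88 on 89 WT and 19 cKO UMIs. The median of p53 targets was −0.29, from −0.92 for Pmaip1 to 0.49 for Bax, a death effector.

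**Figure D5:**
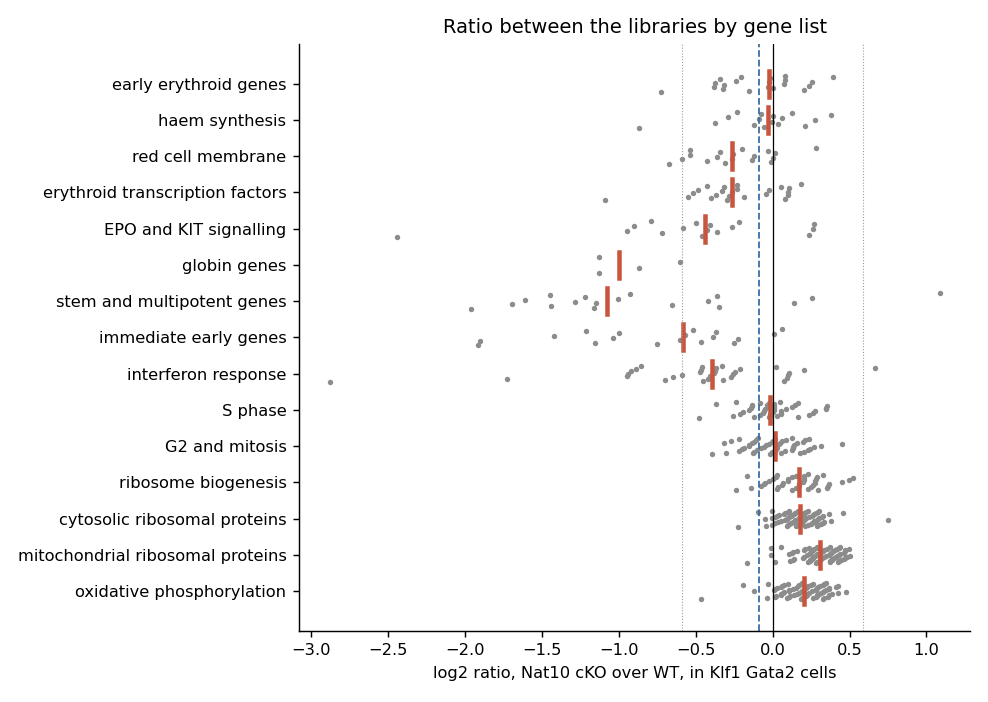
log2 ratio of Nat10 cKO over WT in Klf1/Gata2 cells for genes of 15 lists (grey points, genes with at least 50 UMIs) with the list's median (red bar); the dashed line is the median of all genes, −0.09, and dotted lines mark 1.5-fold. Stem and multipotent genes (−1.08), globin genes (−0.99) and immediate early genes (−0.58) lie lowest, and mitochondrial ribosomal proteins (0.31) highest.

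Members held medians of 7147 genes in WT and 7021 in cKO, and of 1.72% and 1.62% mitochondrial UMIs. Scrublet called 29 WT members (5.86%) and 25 cKO members (3.20%) doublets, against 4.72% and 4.84% of all kept cells, so the called share was higher in WT members. The rule does not remove them. The libraries shared 40 barcodes among kept cells, and the share ratio was 1.76 without them. The members' sums rest on 23769377 WT and 38034352 cKO UMIs, so intervals of well-covered genes are narrow and say nothing of the spread between mice.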

How the data were processed

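Unique molecular identifier counts per gene and barcode were deposited by the authors, 1 matrix per library, and were used as whole-number counts with no normalization. The submitters' processing notes name Cell Ranger 7.1.0 and build mm39. A barcode was kept with 1000 UMIs and 500 genes or more and a mitochondrial part of no more than 10%. Counts of a group's cells were summed per library and given as CPM. Ratios carry exact conditional binomial 95% intervals, levels exact Poisson ones and shares exact binomial ones, all for counting error only. With 1 library per genotype no gene was tested. Genes named between groups are the 12 highest and 12 lowest measured, leaving out unnamed gene models and sex-linked, mitochondrial, globin, antibody and T cell receptor genes, beside the genes of the rule and the ends of 27 gene lists. Members, lists and rules were chosen with earlier results of these data known. Doublets were called with Scrublet in scanpy 1.11.5 and kept. TMM factors came from edgeR 4.0.16. Alternatives were other scalings, filters and weights, thinning, and no called doublets. Scripts were tested on simulated data. Some genes that meet the naming rule are not reported here.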

Additional observations from a re-analysis of the deposited data

How the results depend on the processing

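The share ratio of Klf1/Gata2 cells was 1.41 after thinning to 10000 UMIs and between 1.67 and 1.81 under the 6 other settings. Genes at least 1.5-fold higher in cKO, 14 as reported, numbered 194 with TMM, 51 with median-of-ratios scaling, 36 with every cell weighing alike, 22 without called doublets, 291 in members chosen after thinning, 42 with a mean of at least 5 CPM, 4 with at least 100 CPM, and 24 among members with 30000 to under 60000 UMIs. Lower genes, 202 as reported, numbered 94 with TMM, 919 after thinning, 584 at 5 CPM and 41 at 100 CPM. Against Klf1 cells without Gata2, the 85 higher genes became 197 after thinning and 11 at 100 CPM, and the 39 lower ones 13 at 100 CPM. Signs turned for the iron handling median with TMM (0.027) and the lymphoid median among members with 30000 to under 60000 UMIs (0.28). They turned with TMM for Ddx10 (0.014), Gata2 (0.050), Rpl23a (0.087) and Tfrc (0.027), and for Gata2 with the WT mix of bins (0.020). After thinning they turned for Cd79a (−0.080), Dntt (1.97), Dscc1 (−0.32), Gbp2 (−0.91), Ly6a (−0.57), Psmb8 (−0.018), Ptpn6 (−0.25), Selp (1.02), Tfrc (0.10) and Vcam1 (0.26), and in the range of 30000 to under 60000 for Cd74 (1.14) and Hba-a2 (0.10). The cause of these changes was not tested. The range of 30000 to under 60000 UMIs and the removal of shared barcodes were chosen after seeing the data. No paired analysis was possible because each genotype has 1 library.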

Other observations

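The remaining gene lists in Klf1/Gata2 cells gave these medians of the log2 ratio of cKO over WT. Iron handling had −0.15, with 0 genes past 1.5-fold. Megakaryocyte genes had −0.49, basophil and mast cell genes −0.36 and neutrophil and monocyte genes −0.58. Lymphoid genes had −0.23, and D cyclins with CDK inhibitors −0.20. Apoptosis regulators had −0.37 with 2 of 10 past the limit downward, against 3.08% of all genes. Histone genes had 0.15 with 41 of 59 above 0, against 2556 of all 6559 genes. Macrophage genes summed to 6.31 CPM in WT and 1.37 CPM in cKO members, stromal and endothelial genes to 25.6 and 22.4 CPM, and eosinophil genes to 10.6 and 7.81 CPM.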
